A study of Mus musculus with 2 samples.

Results

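The mature neutrophils described here are 64 cells of a mouse spleen single-cell RNA sequencing table, or 0.971% (0.749 to 1.24) of the 6588 cells that passed the cell filter. They were chosen by transcripts. A member had at least 20 unique molecular identifiers (UMIs, each marking 1 captured RNA molecule) of S100a8 and S100a9 together. It had fewer than 20 UMIs of the granule genes Ngp, Camp and Ltf together, and at least 2 UMIs of Csf3r, Il1b and Cxcr2 together. It had at most 1 UMI of the B cell genes Cd79a, Cd79b and Ms4a1, at most 1 of the T cell genes Cd3d, Cd3e and Cd3g, and at most 2 of the monocyte genes F13a1 and Vcan. Levels of these genes are therefore a description of the choice.

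The study profiled spleen cells of 2 mouse samples aged 6 to 8 weeks, titled WAS660 and WT664. The protocol speaks of WAS-KO and WT mice, and the labels give Wiskott-Aldrich syndrome as the mouse model on both. In that syndrome immune and platelet defects follow from loss of WASP, a protein that starts actin branching in blood cells. Strain, sex, the kind of Was allele and the number of animals behind each sample are not stated in the labels. The counts came as 1 table of 7524 barcodes, all different and all with the same suffix, so no barcode could be tied to either genotype. WAS-KO and WT cells cannot be told apart in it, and no genotype comparison was made. Cells of 1 pooled table are not replicates: every comparison below is between summed counts of classes of cells, has no replicate check and carries no p-value. Values in brackets are exact 95% intervals, which cover counting error only.

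Neutrophils are short-lived phagocytes that are made in the bone marrow and, in mice, also in the spleen when myelopoiesis there is active. While they mature they fill their granules in waves, primary granules first, secondary (specific) granules next and gelatinase granules last. They switch off the granule genes of one wave before the next begins, stop dividing, and acquire the receptors for G-CSF and for the chemokines that guide them into blood and tissue. Mature neutrophils hold little RNA, and they respond to microbes and tissue damage with interleukin-1 beta and with the chemokine CXCL2, which recruits further neutrophils through CXCR2.

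Each set of values is set beside those of 2 other classes of the same table. Immature neutrophils, 91 cells, met the same S100 and lineage limits but had at least 20 UMIs of Ngp, Camp and Ltf. Classical monocytes, 64 cells, had at least 3 UMIs of F13a1 and Vcan, at least 1 of Ly6c2 and fewer than 20 of S100a8 and S100a9. The 64 mature cells held 191771 UMIs, the 91 immature cells 1303918 and the 64 monocytes 958553. Median depth per cell was 2733.5 UMIs (1501 to 7822) in mature neutrophils, against 12814 (614 to 32878) in immature neutrophils and 12948 in monocytes. The median number of genes detected per cell was 1037 in mature neutrophils and 2213 in immature neutrophils. Levels are given as counts per 1000000 UMIs of the class (CPM), and differences as log2 ratios of CPM.

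The S100a8 and S100a9 limit and the Csf3r, Il1b and Cxcr2 limit lay in gaps in the data. The granule limit did so less clearly, since 1 member lay close to it. Of the 64 members, 50 had no UMI of Ngp, Camp or Ltf, 13 had 1 to 4 and 1 had 18, while the nearest cells outside that limit had 23, 30 and 43. The members nearest the lower limit of Csf3r, Il1b and Cxcr2 held 11, 14 and 15 UMIs, and the 3 cells that missed that limit alone held 1, 0 and 0. The lowest S100a8 and S100a9 sums among members were 58, 64 and 86, and the highest among the 74 cells that missed that limit alone were 16, 15 and 13. Of 78 cells that met the 3 neutrophil limits, 14 were left out by a lineage limit, 9 of them for B cell transcripts. A further 5 cells were left out by the limit of 10% mitochondrial UMIs alone.

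**Figure D1:**
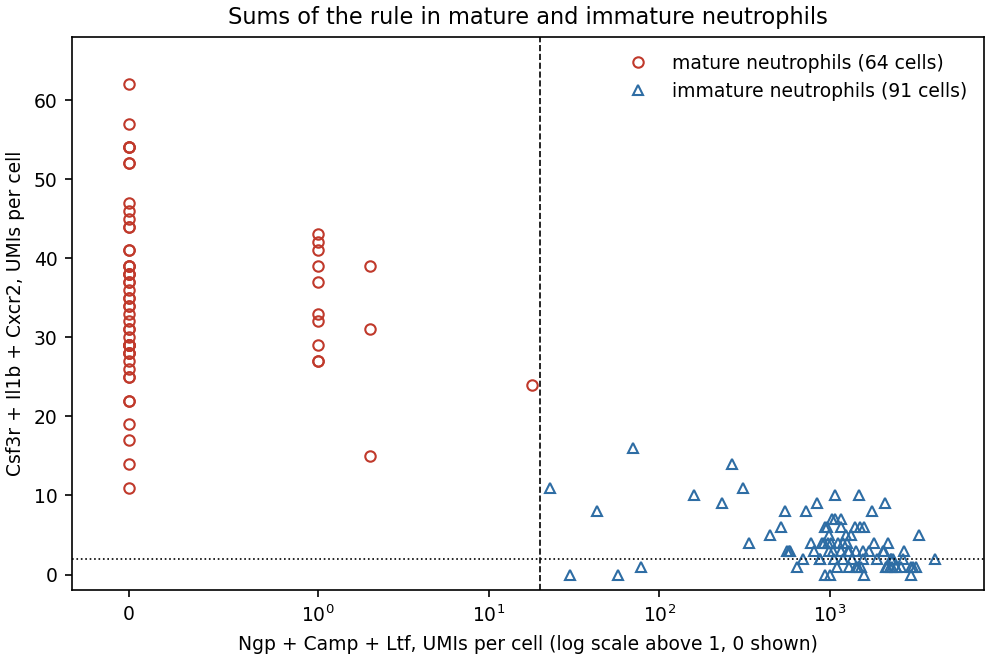
Granule transcripts (Ngp, Camp and Ltf, UMIs per cell) against Csf3r, Il1b and Cxcr2 transcripts (UMIs per cell) for 64 mature neutrophils (circles) and 91 immature neutrophils (triangles), with the rule's limits of 20 and 2 as lines. The mature cells lie at 0 to 18 granule UMIs and 11 to 62 UMIs of the other sum, and the immature cells at 23 to 4161 and 0 to 16.

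Of the label's 5 markers, Il1b, Csf3r and Cxcr2 are in the rule, so their values describe the choice and do not check the label. Il1b, which encodes interleukin-1 beta, had 1282 UMIs in all 64 mature cells (2 to 41 per cell, median 19.5), against 8 UMIs in 5 of 91 immature cells and 66 UMIs in 18 of 64 monocytes. Csf3r, the G-CSF receptor, had 527, 131 and 104 UMIs in mature neutrophils, immature neutrophils and monocytes, and Cxcr2, the receptor for CXCL2, had 416, 222 and 0. The other 2, Ifitm1 and Cxcl2, are outside the rule and were higher in mature neutrophils than in the other classes, as given below. They were named with earlier results of these data known, so they too describe the label and do not check it. Some inflammatory cytokine and chemokine genes were near 0. Tnf had 2 UMIs in the 64 mature cells, Il1a 1, Cxcl3 2, Ccl3 4 and Ccl4 4, all looked up after values had been seen.

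Marker lists of other cell types were summed in the members. The rule itself limits 3 of the B cell, 3 of the T cell and 2 of the monocyte markers, so low sums of these lists are partly fixed by the choice. The B cell list (10 genes) summed to 116 UMIs over 64 cells, at most 7 in any cell. The monocyte list summed to 110 UMIs, at most 7 in a cell, with Ccr2, which the rule does not use, at 0. T cell, dendritic cell and eosinophil lists summed to 8, 2 and 3 UMIs, Siglecf and Epx were at 0, and the basophil list had none. The natural killer (NK) cell list summed to 112 UMIs, of which 111 lay in 1 member. That member had 7459 UMIs, with 89 of Gzma, 87 of Ccl5 and 27 of Nkg7, beside 54 UMIs of Csf3r, Il1b and Cxcr2. Ccl5 had only 11 UMIs in the other 63. A doublet caller (Scrublet) marked 3 of the 64 members, this one among them, and 137 of the 6588 cells (2.08%).

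Platelet, macrophage and pancreatic transcripts were also seen in some members. The platelet list, led by Pf4 with 45 UMIs in 9 cells, stood at 485 CPM (391 to 594) in mature neutrophils, against 6.14 CPM in immature neutrophils, 49.0 CPM in monocytes and 15.7 CPM in B cells. These UMIs came from 10 cells, at most 18 in a cell. The macrophage list summed to 84 UMIs in 29 cells, led by the haem-degrading enzyme gene Hmox1 with 36, and stood at 438 CPM in mature neutrophils, 146 CPM in immature neutrophils and 390 CPM in monocytes. The pancreatic enzyme list summed to 43 UMIs in 9 cells, 23 of them in 1 cell, and stood at 224 CPM in mature neutrophils, 8.44 CPM in immature neutrophils and 13.6 CPM in monocytes. Haemoglobin and other erythroid transcripts summed to 2117 CPM in mature neutrophils, 8705 CPM in immature neutrophils, 18470 CPM in monocytes and 13575 CPM in B cells. However, 1 immature cell held 9830 of the 11351 UMIs of its class. In monocytes 1 cell held 9462 of 17704, so no direction is read from these sums. The part of these transcripts in the results below was not tested.

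The regulatory sequence of the marker genes is shown because Il1b, Cxcl2 and Ifitm1 stood out in level and each lies at a different locus. Cxcl2 is on chromosome 5 at 90903871 to 90905938 (plus strand), Il1b on chromosome 2 at 129364570 to 129371139 (minus strand) and Ifitm1 on chromosome 7 at 140967221 to 140969825 (plus strand) in GRCm38. The 250 bases before each RefSeq start site (GRCm38.p6) are printed in the direction of the gene, with capitals for matches to GGGNNTTTCC, the letters of a kappaB site, searched on both strands. The windows lie at chr5:90903649-90903898 (Cxcl2, plus strand), chr2:129371140-129371389 (Il1b, minus strand) and chr7:140967826-140968075 (Ifitm1, plus strand). The RefSeq starts of Cxcl2 and Ifitm1 lie inside the gene spans above, which are GENCODE's.
Cxcl2: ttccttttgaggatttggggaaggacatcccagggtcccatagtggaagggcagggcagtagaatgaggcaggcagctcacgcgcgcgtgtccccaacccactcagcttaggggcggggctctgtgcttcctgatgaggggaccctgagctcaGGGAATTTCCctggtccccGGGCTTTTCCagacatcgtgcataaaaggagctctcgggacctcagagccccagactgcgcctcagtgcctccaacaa
Il1b: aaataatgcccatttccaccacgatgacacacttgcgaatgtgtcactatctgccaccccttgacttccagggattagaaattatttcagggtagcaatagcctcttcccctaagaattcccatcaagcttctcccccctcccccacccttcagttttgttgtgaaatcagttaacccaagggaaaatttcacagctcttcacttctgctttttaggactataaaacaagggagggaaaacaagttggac
Ifitm1: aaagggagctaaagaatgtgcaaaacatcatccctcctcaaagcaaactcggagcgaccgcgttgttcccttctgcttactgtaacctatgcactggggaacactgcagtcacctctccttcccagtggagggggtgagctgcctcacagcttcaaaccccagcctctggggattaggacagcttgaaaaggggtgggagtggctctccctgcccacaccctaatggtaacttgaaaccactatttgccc
Cxcl2 held 2 such matches, at 97 and 78 bases before its start, whereas the Il1b and Ifitm1 windows held none. Over windows of 300 bases (the 250 shown and the 50 after the start), 535 of 32851 mouse promoters (1.63%) held the letters. The Ccl6 window held no kappaB letters either. None of the Cxcl2, Il1b, Ifitm1 and Ccl6 windows held TGANTCA (7.81% of promoters), TTGCNNAA (10.8%) or TTTCNNTTTC (3.44%). A match describes the letters and not a bound site.

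Mature and immature neutrophils differed in many genes. Of 2670 genes with at least 50 UMIs over both classes, 897 (33.6%) were at least 2-fold higher in mature neutrophils and 401 (15%) at least 2-fold lower. The median gene had a log2 ratio of 0.49, and ratios are to be read against that shift. S100a8 and S100a9 took 13.6% of UMIs in mature neutrophils and 37.5% in immature neutrophils, and taking them and haemoglobin out of the totals moved all ratios by -0.49. With TMM scaling all ratios moved by -0.56, and 538 genes were higher and 623 lower. With median-of-ratios scaling they moved by -0.77, giving 440 higher and 753 lower. The share of higher genes among those past 2-fold was thus 69.1% with total counts, 46.3% with TMM and 36.9% with median of ratios. The immature class is deeper, so a gene that is low in it passed the 50-UMI minimum only if it was high in mature neutrophils. Counts over the genes that passed therefore describe these sums and support no direction. The CPM sum of all genes of a list in the table has no such minimum and is given for most lists compared with immature neutrophils. The counts of each list are to be read against the 33.6% higher and 15% lower of all genes.

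Ifitm1, Wfdc17 and Fgl2 were among the genes with the highest ratios outside the rule. Ifitm1, an interferon-inducible membrane protein, had 989 UMIs in 58 of 64 mature cells (0 to 49 per cell, median 13.5), against 22 UMIs in 15 of 91 immature cells and 14 UMIs in 7 of 64 monocytes. Its level was 5157 CPM (4841 to 5489) in mature neutrophils, 16.9 CPM (10.6 to 25.5) in immature neutrophils, 14.6 CPM in monocytes and 9.57 CPM in B cells, a log2 ratio to immature neutrophils of 8.26 (7.65 to 8.94). Both other myeloid classes were thus closer to B cells than to mature neutrophils. The small secreted protein gene Wfdc17 had 988 UMIs in 61 mature cells, against 16 UMIs in 5 immature cells (log2 8.71, 8.01 to 9.53), but 857 UMIs in 63 monocytes. Fgl2, a membrane-bound and secreted fibrinogen-like protein, had 188 UMIs in 56 mature cells and 4 in immature neutrophils (log2 8.32, 6.94 to 10.21).

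Several genes had no UMI at all in the 91 immature cells, although those held far more RNA in total. H2-Q10, a class I MHC gene, had 109 UMIs in 46 mature cells and was at least 247-fold higher, counting 0 UMIs as up to 3. Its reads can be shared with the other H2-Q copies, so its identity is uncertain. Steap4, a metalloreductase, had 79 UMIs in 30 mature cells (at least 179-fold), Cd244, a SLAM-family receptor, 51 UMIs in 37 cells (at least 116-fold) and Nlrp3, the inflammasome sensor, 50 UMIs in 33 cells (at least 113-fold). Of these 4, monocytes also held Cd244 (130 UMIs) and Nlrp3 (20), but they had 0 of Steap4 and 1 of H2-Q10. Jaml, a junctional adhesion molecule of leukocytes, had 99 UMIs in 48 mature cells, against 4 UMIs in 3 immature cells.

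**Figure D2:**
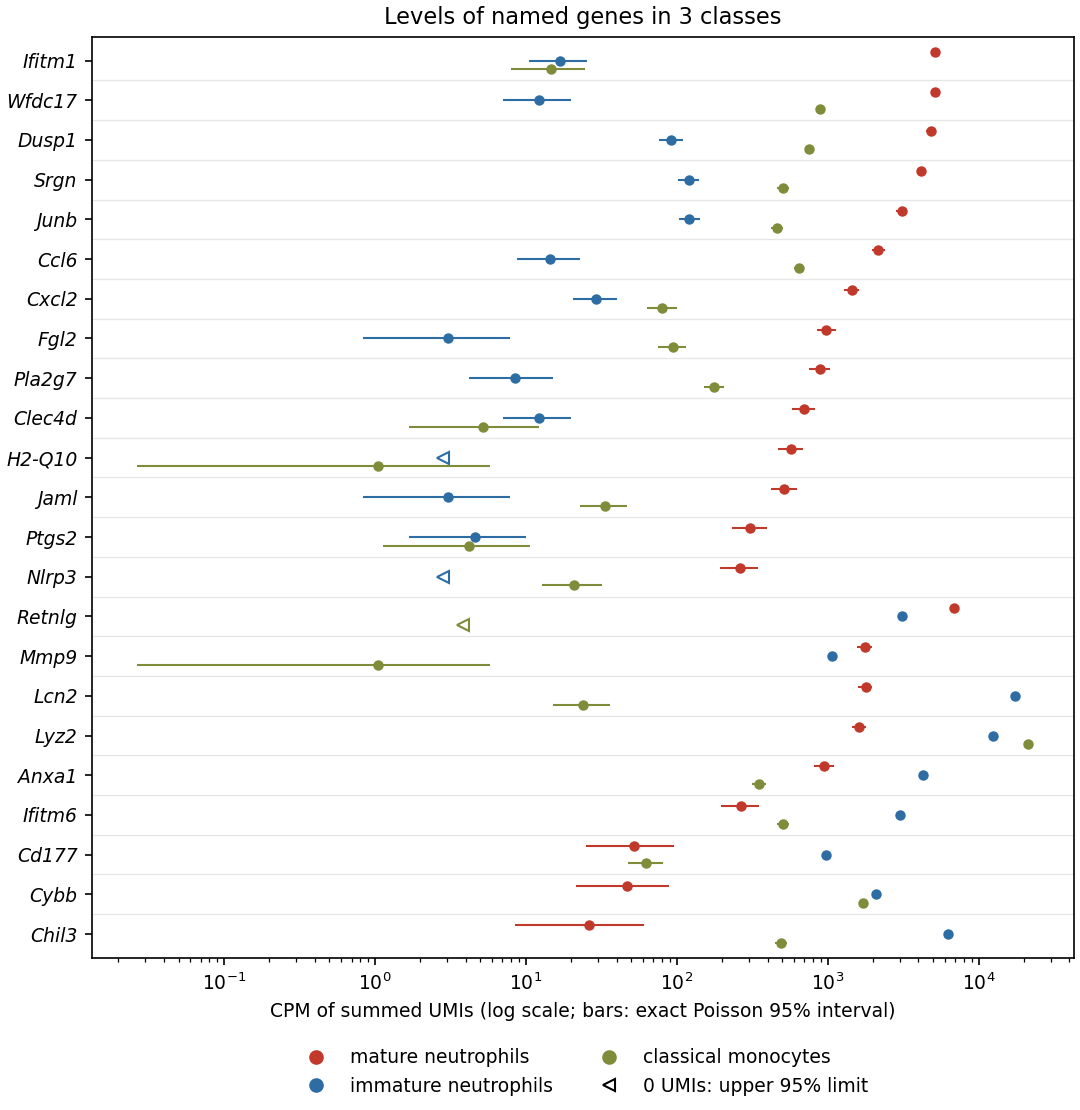
Levels of 23 genes in mature neutrophils, immature neutrophils and classical monocytes (CPM on a log axis, bars are exact 95% Poisson intervals of the summed counts, triangles mark the upper limit where no UMI was seen). Ifitm1 stands at 5157 CPM in mature neutrophils and below 70 CPM in the other classes.

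Transcripts of secondary granules were low in the mature cells, beyond the 3 genes that the rule used. With those 3 included, the list of 21 genes summed to 11582 CPM in mature neutrophils and 155891 CPM in immature neutrophils. Of 16 further secondary granule genes measured, 13 were at least 2-fold lower in mature neutrophils, 1 was higher and the median log2 ratio was -3.11, against 0.49 for all genes. Lcn2, a siderophore-binding protein, had 342 UMIs in 50 of 64 mature cells (0 to 43 per cell, median 4), against 22663 UMIs in all 91 immature cells (log2 -3.28, -3.44 to -3.13). Chil3, a chitinase-like protein, had 5 UMIs, all in 1 mature cell, against 8166 in immature neutrophils (log2 -7.91, -9.53 to -6.68). The lectin gene Fcnb had 0 UMIs in mature neutrophils and 559 in immature neutrophils, at least 27.4-fold lower. Transcripts of some surface proteins were low as well, and the proteins were not measured. Cd177 had 10 UMIs in mature neutrophils and 1268 in immature neutrophils. Ly6g, the usual surface marker of mouse neutrophils, had 10 UMIs in 7 mature cells and 881 in 81 immature cells (log2 -3.70, -4.76 to -2.81). Lyz2, the lysozyme of neutrophils and macrophages, was lower in mature neutrophils (1617 CPM) than in immature neutrophils (12391 CPM) and monocytes (21338 CPM).

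A few granule transcripts did not follow the rest. Lrg1, a secreted glycoprotein of neutrophil granules, was the gene that was higher, at 1314 CPM (1157 to 1487) in mature neutrophils and 585 CPM (544 to 628) in immature neutrophils (log2 1.17, 0.96 to 1.37). Hp, which encodes haptoglobin, had 335 UMIs in 63 mature cells and 2187 UMIs in 90 immature cells, a log2 ratio of 0.06 (-0.11 to 0.23). Mmp8, the neutrophil collagenase, had 100 UMIs in 28 mature cells, at most 30 in a cell, and 1252 UMIs in 55 immature cells (log2 -0.88, -1.19 to -0.59). Both classes were thus uneven for Mmp8 from cell to cell. Pglyrp1, a peptidoglycan-binding protein, was 1220 CPM in mature neutrophils and 2605 CPM in immature neutrophils. Mmp8 and Pglyrp1 were chosen after their values were seen.

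Most primary granule genes had few or no UMIs in mature neutrophils, apart from the gene of the proteoglycan that packs granules. Of 6 measured, 5 were lower and 1 was higher in mature neutrophils, with a median log2 ratio of -2.30, which turned to 0.41 when genes were taken by a mean level of 50 CPM. The sum of the list, 4406 CPM in mature neutrophils and 1542 CPM in immature neutrophils, was dominated by that 1 gene. Elane, the neutrophil elastase gene (looked up after values were seen), had 0 UMIs in mature neutrophils and 109 in 8 immature cells. Serpinb1a, an inhibitor of elastase, had 3 UMIs in 1 mature cell and 999 UMIs in 86 immature cells, and Cd63, a tetraspanin of granule membranes, 20 and 501 UMIs. Srgn, which encodes serglycin, had 799 UMIs in all 64 mature cells (3 to 28 per cell, median 12) and 157 UMIs in 55 immature cells (log2 5.11, 4.86 to 5.37). It was also the member of this list most widely detected outside neutrophils, at 507 CPM in monocytes and 661 CPM in B cells.

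Gelatinase granule genes, those of the last wave, were mostly higher in mature neutrophils. The 13 listed genes summed to 15602 CPM in mature neutrophils, 6475 CPM in immature neutrophils and 759 CPM in monocytes. Of 10 measured, 6 were at least 2-fold higher, none was lower and the median log2 ratio was 1.14, or 0.37 with median-of-ratios scaling. Retnlg, a resistin-like secreted protein, had 1323 UMIs in 62 mature cells (median 11, highest 228 in a cell), against 4063 UMIs in 76 immature cells and 0 in monocytes. Its log2 ratio to immature neutrophils was 1.15 (1.06 to 1.24), and it was at least 2204-fold higher than in monocytes. Mmp9, which encodes gelatinase B, had 337 UMIs in all 64 mature cells (1 to 20 per cell), 1384 UMIs in 75 immature cells and 1 UMI in monocytes. Its log2 ratio to immature neutrophils, 0.73 (0.55 to 0.90), is smaller than the shift of the median-of-ratios scaling, under which its sign changes. Slpi, a secreted inhibitor of elastase, was 4140 CPM in mature neutrophils and 612 CPM in immature neutrophils (log2 2.76), and Arg2, the mitochondrial arginase, had 63 UMIs in 37 mature cells and 16 UMIs in 10 immature cells (log2 4.74, 3.93 to 5.63).

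Receptors that guide neutrophils were mixed. Without Cxcr2, 5 of 10 chemoattractant receptors measured were higher and 3 lower, with a median log2 ratio of 0.67, near the 0.49 of all genes and below the shift of the median-of-ratios scaling. Ccr1, a receptor of CC chemokines, had 189 UMIs in 59 mature cells and 202 UMIs in 60 immature cells (log2 2.67, 2.38 to 2.96). C5ar1, the receptor of complement C5a, had 141 UMIs in 57 mature cells and 239 UMIs in 84 immature cells (log2 ratio between 1.69 and 2.31). Cxcr4, which holds neutrophils in the marrow through CXCL12, was at 605 CPM in mature neutrophils, 96.6 CPM in immature neutrophils, 172 CPM in monocytes and 188 CPM in B cells. Ffar2, Ltb4r1 and S1pr4, receptors of short-chain fatty acids, leukotriene B4 and sphingosine-1-phosphate, were the lower ones, named here because they are few, with 0, 19 and 2 UMIs in mature neutrophils and 66, 565 and 65 in immature neutrophils. Fpr2, a formyl peptide receptor chosen after values were seen, had 33 UMIs in 23 mature cells and 265 UMIs in 71 immature cells (log2 -0.24, -0.81 to 0.29).

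Summed over 28 genes, cytokine receptors stood at 6826 CPM in mature neutrophils, Csf3r included, and 948 CPM in immature neutrophils. Besides Csf3r, 10 of 12 that passed the minimum were higher and none lower (median log2 2.01). The signalling partner of the interleukin-1 receptor, Il1rap, had 43 UMIs in 26 mature cells and 8 UMIs in 7 immature cells (log2 5.19, 4.09 to 6.49). Il1r2, the decoy receptor that binds interleukin-1 without signalling (chosen after values were seen), had 62 UMIs in 41 mature cells and 75 UMIs in 46 immature cells (log2 2.49, 1.98 to 3.00). Csf1r, the M-CSF receptor, had 32 UMIs in 24 mature cells, 3 UMIs in 3 immature cells and 451 UMIs in 63 monocytes, so the mature cells stood between the other 2 classes. The 19 adhesion genes summed to 7691 CPM in mature neutrophils and 2754 CPM in immature neutrophils. Of 13 that passed the minimum, 7 were higher and 1, Ceacam1, was lower (median log2 2.49). Selplg, the P-selectin ligand, was 1262 CPM in mature neutrophils and 106 CPM in immature neutrophils (log2 3.58, 3.27 to 3.89).

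Pattern recognition genes, 26 in the table, summed to 2534 CPM in mature neutrophils, 394 CPM in immature neutrophils and 1219 CPM in monocytes. Of the 8 that passed the minimum, 7 were higher and none lower (median log2 2.40). Clec4d, a C-type lectin that senses mycobacterial and fungal glycolipids, had 133 UMIs in 56 mature cells, 16 UMIs in 11 immature cells and 5 UMIs in 5 monocytes (log2 to immature neutrophils 5.82, 5.07 to 6.67). Its partner Clec4e had 76 UMIs in 37 mature cells and 88 UMIs in 42 immature cells (log2 2.55), and Cd14, the co-receptor for lipopolysaccharide, 56 UMIs in 25 mature cells and 32 UMIs in 21 immature cells (log2 3.57). Of 25 activating and inhibitory surface receptors that passed the minimum, 15 were higher and 5 lower, against 33.6% and 15% of all genes. Cd300ld, an activating receptor of myeloid cells, had 128 UMIs in 49 mature cells and 21 UMIs in 17 immature cells (log2 5.37, 4.70 to 6.11). Tyrobp, the adaptor that many such receptors share, was found in every mature cell (5 to 33 UMIs) at 4969 CPM, against 1492 CPM in immature neutrophils and 3054 CPM in monocytes.

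Cytokine and chemokine transcripts came mostly from a few genes. The list summed to 13991 CPM in mature neutrophils, 889 CPM in immature neutrophils and 2639 CPM in monocytes. In mature neutrophils Il1b, a rule gene, gave 1282 of its 2683 UMIs. Of 38 such genes in the table, 11 passed the minimum, and without Il1b 8 of 10 were higher in mature neutrophils and none was lower (median log2 2.10). Cxcl2 had 277 UMIs in 37 of 64 mature cells (0 to 27 per cell, median 1), 38 UMIs in 20 of 91 immature cells and 77 UMIs in 8 of 64 monocytes. Its level was 1444 CPM (1279 to 1625) in mature neutrophils, 29.1 CPM in immature neutrophils, 80.3 CPM in monocytes and 1.36 CPM in B cells, and the log2 ratio to immature neutrophils was 5.63 (5.14 to 6.16). Unlike Il1b, found in every member, Cxcl2 was uneven among them. Ccl6, a CC chemokine of myeloid cells, had 415 UMIs in 60 mature cells, 19 UMIs in 12 immature cells and 620 UMIs in 60 monocytes. Hdc, the enzyme that makes histamine, had 342 UMIs in 62 mature cells, 501 UMIs in 86 immature cells and 16 UMIs in 11 monocytes. Il1f9, an interleukin-36 gene under its older symbol, had 83 UMIs in 42 mature cells and 34 UMIs in 24 immature cells (log2 4.05), with none in monocytes. Ccl5 counts among the higher genes, but 87 of its 98 UMIs lay in the member with NK cell transcripts.

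Immediate early genes are transcribed within minutes of a stimulus and also of cell handling, and were listed together with heat shock chaperones, 36 genes in all. Their sum was 29462 CPM in mature neutrophils, 3256 CPM in immature neutrophils and 13281 CPM in monocytes. Of 18 that passed the minimum, 17 were higher than in immature neutrophils and none lower, with a median log2 ratio of 3.37, or 2.61 with median-of-ratios scaling. Dusp1, a phosphatase that ends MAP kinase signalling, had 925 UMIs in all 64 mature cells (3 to 27 per cell, median 14.5), 120 UMIs in 47 immature cells and 726 UMIs in 63 monocytes. Its log2 ratio was 5.71 (5.44 to 6.00) to immature neutrophils and 2.67 (2.53 to 2.81) to monocytes. The AP-1 subunit gene Junb was 3097 CPM in mature neutrophils, 121 CPM in immature neutrophils and 461 CPM in monocytes, and Fos 3421, 310 and 1235 CPM. When every cell was thinned to 1000 UMIs, the list summed to a median of 30.5 UMIs per mature cell (12 to 56), against 3 (0 to 11) in 89 immature cells, 13 (5 to 33) in monocytes and 11 in B cells. The ranges of mature and immature neutrophils did not overlap. How the spleens were dissociated is not stated in the labels, and the part of cell handling was not tested.

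The 30 NF-kB genes summed to 5241 CPM in mature neutrophils and 834 CPM in immature neutrophils. Of 10 that passed the minimum, 9 were higher and none lower, with a median log2 ratio of 2.90. Nfkbia, the inhibitor that NF-kB induces to limit itself, had 218 UMIs in 49 mature cells (highest 23 in a cell) and 240 UMIs in 80 immature cells (log2 2.63, 2.36 to 2.90). Tnfaip2, a gene induced by tumour necrosis factor, had 178 UMIs in 57 mature cells and 81 UMIs in 48 immature cells (log2 3.90). In thinned cells the list had a median of 5 UMIs per mature cell (0 to 30), 1 per immature cell, 2 per monocyte and 2 per B cell. Of 7 survival and death genes that passed the minimum, 3 were higher, 1 lower and 3 neither (median log2 0.97). Among the higher, Mcl1, a BCL2-family protein that neutrophils depend on, and Pim1, a kinase downstream of cytokine receptors, were 2482 and 1168 CPM in mature neutrophils and 261 and 46.0 CPM in immature neutrophils.

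The 43 type I interferon genes in the table summed to 18626 CPM in mature neutrophils, 3643 CPM in immature neutrophils and 15307 CPM in monocytes. A few genes made up much of the sum in mature neutrophils: of 3572 UMIs, Ifitm1 alone gave 989 and Ifi27l2a 369. Of 20 that passed the minimum, 17 were higher than in immature neutrophils and none lower, with a median log2 ratio of 2.76, or 1.99 with median-of-ratios scaling. Ifitm2 was 2633 CPM in mature neutrophils and 541 CPM in immature neutrophils, whereas its neighbour Ifitm3 was 1439 CPM in mature neutrophils, 1669 CPM in immature neutrophils and 4389 CPM in monocytes. The 3 Ifitm genes are similar in sequence, so reads may be split between them, yet their patterns across the 3 classes differed. Isg15, a ubiquitin-like protein, and Rsad2, an antiviral enzyme (both chosen after values were seen), were found in 28 and 19 of the 64 mature cells, with 108 and 80 UMIs. In thinned cells the list summed to a median of 17 UMIs per mature cell (4 to 54), 4 per immature cell (0 to 18), 17 per monocyte (5 to 47) and 4 per B cell, so mature neutrophils stood at the level of monocytes.

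**Figure D3:**
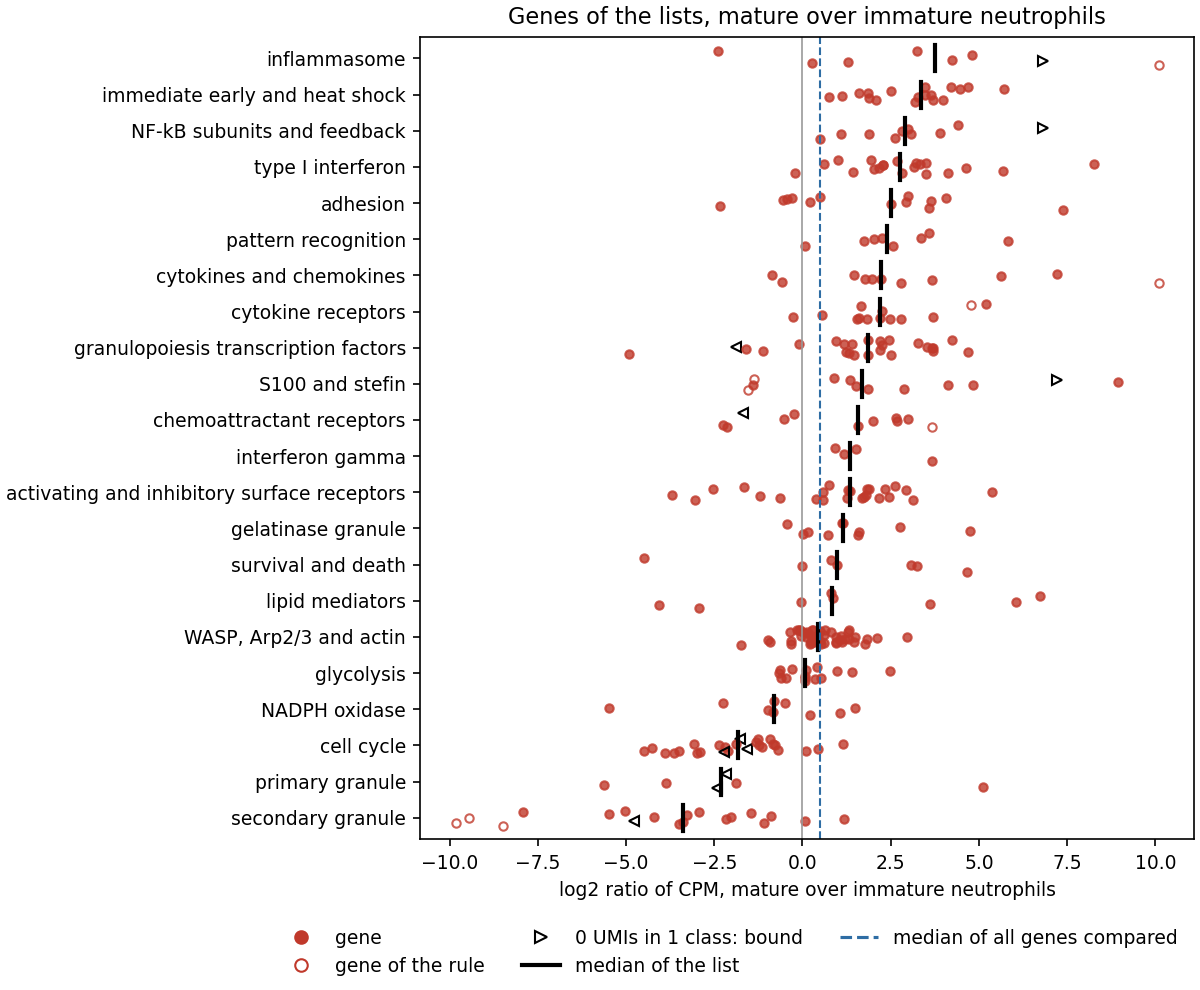
Log2 ratio of mature over immature neutrophils for each measured gene of 22 lists, with list medians as bars and the median of all 2670 genes (0.49) as a dashed line. Open circles are genes of the rule and triangles are bounds where a class had no UMI. The immediate early and heat shock, NF-kB and type I interferon medians lie at 3.37, 2.90 and 2.76, and those of secondary granule and cell cycle genes lie below 0.

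Of 9 NADPH oxidase genes measured, which act in the oxidative burst, 2 were higher, 2 lower and 5 neither, near the shares over all genes of 33.6% and 15%. The catalytic subunit stood apart from them. Cybb, the catalytic subunit, on chromosome X at 9435252 to 9487771, had 9 UMIs in 8 of 64 mature cells (0 to 2 per cell), against 2747 UMIs in 90 of 91 immature cells and 1645 UMIs in all 64 monocytes. Its log2 ratio was -5.49 (-6.62 to -4.56) to immature neutrophils and -5.19 (-6.32 to -4.26) to monocytes, and its level, 46.9 CPM (21.5 to 89.1), was also below the 325 CPM of B cells. Cyba, its membrane partner, was 975 CPM (840 to 1125) in mature neutrophils and 1912 CPM (1838 to 1988) in immature neutrophils. Ncf1, a cytosolic organiser of the enzyme, was 443 CPM in mature neutrophils and 630 CPM in immature neutrophils (log2 -0.51, -0.85 to -0.18).

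The 22 inflammasome genes summed to 9490 CPM in mature neutrophils and 504 CPM in immature neutrophils. In mature neutrophils Il1b, a rule gene, gave 1282 of the 1820 UMIs. Without Il1b, 5 of 7 inflammasome genes that passed the minimum were higher and 1, Pycard, was lower (median log2 3.24). Beside Nlrp3, the regulator Nlrp12 (chosen after values were seen) had 45 UMIs in 31 mature cells and 11 UMIs in 9 immature cells, and Txnip, which binds thioredoxin, 263 UMIs in 61 mature cells and 94 UMIs in 53 immature cells (log2 4.25). The adaptor Pycard had only 3 UMIs in mature neutrophils, against 107 in immature neutrophils and 304 in monocytes (log2 to monocytes -4.34, -6.63 to -2.78). Of 8 lipid mediator genes, 3 were higher, 2 lower and 3 neither. Pla2g7, which inactivates platelet-activating factor, had 170 UMIs in 55 mature cells and 11 UMIs in 10 immature cells (log2 6.72, 5.84 to 7.74). Ptgs2, the inducible cyclooxygenase, had 59 UMIs in 24 mature cells and 6 UMIs in 3 immature cells (log2 6.06, 4.86 to 7.57). Lta4h, which makes leukotriene B4, went the other way with 4 UMIs in 3 mature cells and 456 UMIs in 77 immature cells (log2 -4.07, -5.95 to -2.70).

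Cell cycle genes were low in mature neutrophils. The 30 listed genes summed to 2639 CPM in mature neutrophils and 6863 CPM in immature neutrophils. Of 26 measured, 19 were at least 2-fold lower, 1 (Cks2) was higher and the median log2 ratio was -1.83. Birc5, a mitotic regulator, had 1 UMI in mature neutrophils and 154 UMIs in 24 immature cells. Mki67, the Ki-67 proliferation marker (chosen after values were seen), had 5 UMIs, 1 in each of 5 mature cells, and 383 UMIs in 33 immature cells (log2 -3.49, -5.12 to -2.26). The 36 transcription factors of granulocyte development summed to 16019 CPM in mature neutrophils and 3835 CPM in immature neutrophils. Of 25 that passed the minimum, 19 were higher and 4 lower. Cebpe, which drives secondary granule genes, had 3 UMIs in mature neutrophils and 610 UMIs in 80 immature cells, while Cebpb had 529 UMIs in all 64 mature cells and 371 UMIs in 83 immature cells (log2 3.28, 3.08 to 3.47). Mxd1, a MAX-binding antagonist of MYC that accompanies terminal differentiation, was 2128 CPM in mature neutrophils, 466 CPM in immature neutrophils and 20.9 CPM in monocytes.

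The level of Was, the gene behind the mouse model, was close in all 3 classes. It lies on chromosome X at 8081453 to 8090498 and was looked up for its place in the study. Was had 17 UMIs in 14 of 64 mature cells, 114 UMIs in 59 immature cells and 89 UMIs in 50 monocytes. These sums came to 88.6 CPM (51.6 to 142) in mature neutrophils, 87.4 CPM (72.1 to 105) in immature neutrophils, 92.8 CPM in monocytes and 70.5 CPM in B cells, so a difference was not detectable at this depth (log2 to immature neutrophils 0.02, -0.81 to 0.76). The counts are from the 3' end of transcripts, pool both samples and do not check the genotype labels. Of 47 WASP, Arp2/3 and actin genes, 13 were higher and 1 lower, and the list median of 0.45 equals about the shift of all genes and turns to -0.11 with TMM scaling. Fyb, an adaptor of integrin signalling, and Wipf1, the partner that stabilises WASP, had the highest ratios (2.96 and 2.12), and the capping protein gene Capg the lowest (-1.74). Wipf1 had 58 UMIs in 36 mature cells and 91 UMIs in 59 immature cells.

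Against classical monocytes, mature neutrophils had the lower level in more genes than not. Of 3430 genes measured, 515 (15%) were at least 2-fold higher and 1325 (38.6%) at least 2-fold lower, with a median gene at -0.59. TMM scaling moved all ratios by 0.47 and gave 780 higher and 935 lower, and median-of-ratios scaling moved them by 0.34. The share of higher genes among those past 2-fold was 28.0% with total counts, 45.5% with TMM and 40.4% with median of ratios. With genes taken by a mean level of 50 CPM, 642 were higher and 863 lower, and the median gene was at -0.23. Ccr2, the receptor that brings monocytes out of the marrow, had 0 UMIs in mature neutrophils and 1058 in monocytes, at least 70.6-fold lower. S100a4, a calcium-binding protein of motile cells, had 4 UMIs in mature neutrophils and 2063 in monocytes, and Ms4a6c, a membrane protein of monocytes and macrophages, had 4 and 1377 UMIs. All 7 MHC class II genes measured were lower in mature neutrophils (median log2 -2.80).

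Gelatinase granule genes and some neutrophil receptor and metabolic genes were higher than in monocytes. Of 9 gelatinase granule genes measured, 7 were higher and none lower. G0s2, an inhibitor of lipid breakdown, had 148 UMIs in 40 mature cells and 2 UMIs in monocytes (log2 8.53, 6.65 to 11.59), with 438 UMIs in immature neutrophils. The skin and neutrophil protease gene Asprv1 had 99 UMIs in 34 mature cells and none in monocytes (at least 165-fold). Against monocytes, 12 of 28 immediate early and heat shock genes were higher and 6 lower, and 13 of 36 type I interferon genes were higher and 9 lower. Cxcl2 (log2 4.17, 3.80 to 4.55) and Clec4d (7.05, 5.80 to 8.70) were higher than in both classes.

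Because mature cells hold less RNA, shares of cells with a UMI were compared after thinning each cell to 1000 UMIs, which left 64 mature, 89 immature, 64 monocyte and 3027 B cells. B cells, with a median depth before thinning of 5255 UMIs, are given as a class that should lack neutrophil-restricted genes; free RNA was not estimated, and B cells express some genes shown here, such as Cybb. Ifitm1 was seen in 84.4% (73.1 to 92.2) of mature cells, 3.37% (0.701 to 9.54) of immature cells, 0% (up to 5.60) of monocytes and 0.264% of B cells. Wfdc17 was seen in 89.1%, 1.12%, 57.8% and 2.21% of these classes, in the same order. Cxcl2 was seen in 40.6% (28.5 to 53.6) of mature cells, 4.49% (1.24 to 11.1) of immature cells, 4.69% of monocytes and 0.033% of B cells. Cybb was seen in 6.25% (1.73 to 15.2) of mature cells, 84.3% of immature cells, 82.8% of monocytes and 25.1% of B cells. For all 4 genes mature neutrophils stood at the same end of the order by share as by CPM. Before thinning, Cxcl2 was seen in 37 of 64 mature and 20 of 91 immature cells, and Cybb in 8 of 64 and 90 of 91.

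**Figure D4:**
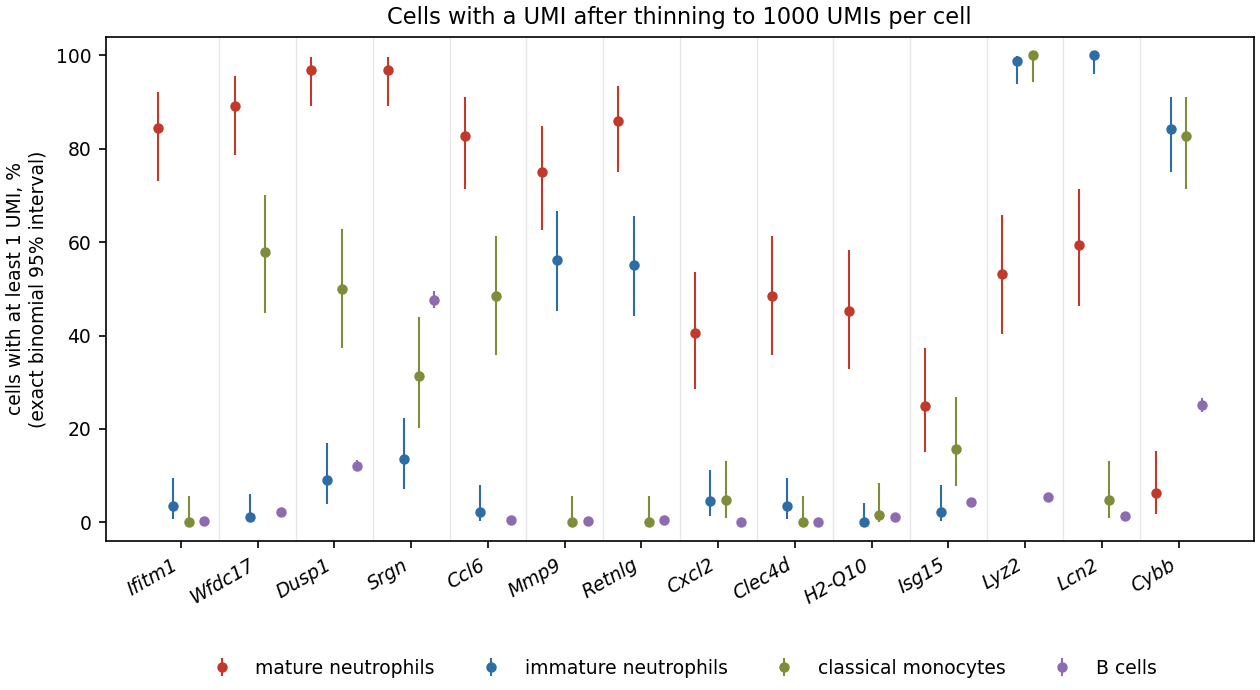
Share of cells with at least 1 UMI (percent, exact 95% binomial intervals) for 14 genes after thinning every cell to 1000 UMIs, in mature neutrophils, immature neutrophils, classical monocytes and B cells. Ifitm1 and Cxcl2 are at 84.4% and 40.6% of mature neutrophils and below 5% of the other classes, and Cybb is at 6.25% of mature neutrophils.

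The 64 members were themselves uneven for some genes. Over 798 genes ranked by variance over mean of thinned counts, the median was 1.12, close to the value that random sampling of molecules gives. The highest values belonged to S100a8 (20.42) and S100a9 (15.75), which are rule genes, and to Gzma, which came from 1 cell. S100a8 had 12 to 898 UMIs per member with a median of 161.5. Further down came mt-Co3 (7.45), a mitochondrial gene, Wfdc17 (7.11), the cysteine protease inhibitor gene Stfa1 (7.01) and Retnlg (6.87). The stefin A genes Stfa1, Stfa2 and Stfa2l1 with Gm5483 and BC100530 had 555 UMIs, all in 32 of the 64 members, and the 4 highest cells held 56.2% of them, with 145, 68 and 56 UMIs in the top 3. These copies are similar in sequence and may share reads, so their sum is given. Stfa2l1 alone was found in 29 members, with up to 32 UMIs in a cell, in 10 immature cells and in no monocyte.

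**Figure D5:**
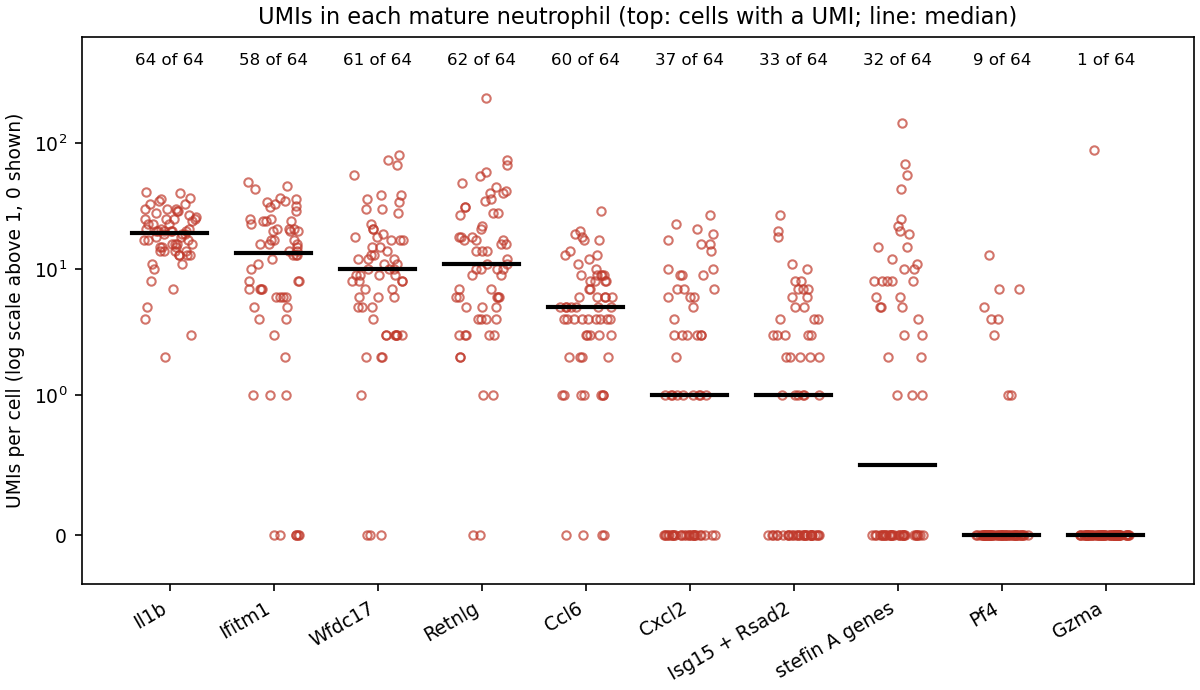
UMIs per cell of 10 genes or sums in the 64 mature neutrophils, each point a cell. Il1b is present in all 64 cells, Ifitm1 in 58, Wfdc17 in 61, Retnlg in 62, Ccl6 in 60, Cxcl2 in 37, Isg15 and Rsad2 in 33, the stefin A genes in 32, Pf4 in 9 and Gzma in 1.

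Members with and without the unevenly detected transcripts were set side by side, leaving out the member with NK cell transcripts. These groups were formed after values had been seen and are descriptions. The 36 cells with a Cxcl2 UMI and the 27 without had similar depth (median 2681 and 2758 UMIs) and similar Il1b (6689 and 6858 CPM, log2 -0.04, -0.20 to 0.13), and of 709 genes with at least 40 UMIs, 13 were at least 2-fold higher and 6 at least 2-fold lower in cells with Cxcl2. Gbp2, an interferon-inducible GTPase, had 7 UMIs in cells with Cxcl2 and 33 in cells without (log2 -2.70, -4.12 to -1.50). It was found in only 16 members, and 6 of them held 75% of its UMIs. Irf1, an interferon regulatory factor, had 25 and 40 UMIs (log2 -1.14, -1.92 to -0.38).

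The 32 cells with Isg15 or Rsad2 and the 31 without had a median depth of 2822 and 2451 UMIs. Of 709 genes, 14 were at least 2-fold higher and 6 lower in cells with these transcripts. Some were outside the interferon lists. Smchd1 had 43 and 7 UMIs (log2 2.56, 1.39 to 3.96) and Man2b1 55 and 20 (log2 1.40). Stfa1 had 14 and 68 (log2 -2.34) and was found in only 6 members. Some other interferon-inducible genes were higher in cells with Isg15 or Rsad2. Irf7, the regulator that amplifies interferon responses, had 45 UMIs in cells with these transcripts and 10 in cells without (log2 2.11, 1.10 to 3.26). Slfn5, a Schlafen family gene, had 56 and 12 UMIs (log2 2.16) and Sp100, a nuclear body protein, 40 and 11 (log2 1.80). Gbp2 had 32 and 8 (log2 1.94), with 75% of its UMIs in 6 cells. Other members of the type I interferon list differed less: Rtp4, a chaperone of receptors, had 50 and 43 UMIs (log2 0.16, -0.46 to 0.78), and Ifitm1 was 5444 CPM in cells with these transcripts and 5018 CPM in cells without (log2 0.12, -0.07 to 0.30). Between the 31 cells with a stefin A transcript and the 32 without (median 2878 and 2496.5 UMIs), 47 of 709 genes were at least 2-fold higher and 20 lower. Ribosomal protein genes were among the higher, such as Rpl15 (81 and 18 UMIs, log2 1.90) and Rps18 (89 and 21 UMIs, log2 1.81). Members with 6619, 7302 and 7822 UMIs, far above the medians, all fell on the stefin A side. The part of a few cells in the count of 47 was not tested. The nucleolar protein gene Npm1 had 80 UMIs in cells with stefin A and 6 in cells without (log2 3.47, 2.28 to 4.95), but 2 cells held 35 and 26 of the 80. The chaperone gene Hsp90ab1 had 102 and 23 UMIs (log2 1.88, 1.21 to 2.60), with 38 and 26 in 2 cells, and Junb was lower (log2 -0.77, -1.01 to -0.53). Il1b differed less, at 6319 CPM with and 7293 CPM without (log2 -0.21, -0.37 to -0.04).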

How the data were processed

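Spleen cells were profiled with 3' droplet libraries. The deposited values are UMI counts per gene symbol and barcode, with no normalization. Per the labels' protocols, transcripts were mapped to mm10-3.0.0; the program for mapping and counting is not given in the sources used here. In all, the table held 46882070 counts over 31017 symbols.

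Barcodes under 200 genes (101) or over 10% mitochondrial UMIs (857) were removed, 936 in all. The members and gene lists were chosen with earlier results of these data known. Classes were summed and scaled to 1000000 (CPM), with exact Poisson, Clopper-Pearson and conditional binomial intervals (numpy 2.4.6, scipy 1.17.1, Python 3.11.15), tested on simulated data. Genes needed 50 UMIs over both classes, and a 0 was taken as up to 3 UMIs. Named genes are the rule genes and markers, the 15 highest and 15 lowest ratios per comparison, from each list the 4 highest levels and the 2 extreme ratios each way, and the 12 most variable genes; others named were chosen after their values were seen. Doublets were scored with Scrublet (scanpy 1.11.5) and TMM factors with edgeR 4.0.16 (R 4.3.3). Coordinates came from GENCODE for GRCm38 (698 of 699 genes) and promoters from RefSeq. Alternatives covered the limits on genes, mitochondrial UMIs and the 3 neutrophil sums, and also scaling, thinning and the UMI minimum. The B cell, T cell and monocyte limits were not varied.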

Additional observations from a re-analysis of the deposited data

How the results depend on the processing

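The number of mature neutrophils was 55 to 69 over the alternatives run, against 64. None of these varied the B cell, T cell and monocyte limits, which left out 14 of 78 cells. The number was 55 with at most 5% mitochondrial UMIs, 69 with no such maximum, 61 without Scrublet doublets and 63 without the member with NK cell transcripts. Leaving that member out and a minimum mean level of 50 CPM were chosen after seeing the data. Of 2670 genes, 897 were at least 2-fold higher than in immature neutrophils, and this became 538 with TMM, 440 with median of ratios, 576 with totals without S100a8, S100a9 and haemoglobin, 142 with cells thinned to 1000 UMIs, 1596 with 20 UMIs as the minimum and 3779 with no minimum and 1 CPM added. The 401 lower genes became 623 with TMM, 753 with median of ratios, 37 thinned, 705 at 20 UMIs, 2547 with no minimum and 189 at 50 CPM. Against monocytes the 515 higher genes became 780 with TMM, 108 thinned, 800 at 20 UMIs and 2054 with no minimum, and the 1325 lower genes became 873 with an S100a8 and S100a9 minimum of 10, 143 thinned, 2391 at 20 UMIs, 5970 with no minimum and 863 at 50 CPM. Thinning and the minimum change how many genes can be counted, and scaling moves all ratios together.

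Among values of at least 2-fold, 4 changed sign. The median of the primary granule list against immature neutrophils turned to 0.41 at 50 CPM, and that of the cell cycle list against monocytes to 0.30 with an S100a8 and S100a9 minimum of 10. Gzma against monocytes went to -1.92 without Scrublet doublets and to -2.04 without the member with NK cell transcripts, against 2.80, since 1 cell held all of it. The cause was not tested for the lists. Over the named genes, 476 of the values recomputed against immature neutrophils moved by more than their interval and 2935 did not. Smaller ratios changed sign more often: against immature neutrophils 76 values of 26 named genes did so, Mmp9 among them, and against monocytes 48 values of 20 did, those of Gzma included. List medians changed sign in 9 values of 4 lists against immature neutrophils and 12 of 9 against monocytes, the 2 above included. Depth limits genes with few UMIs in the 64 members, such as Was. No paired analysis was possible because the pooled table carries no sample or replicate for any barcode.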
